A study of Rattus norvegicus with 2 samples.

Results

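Chaperones are proteins that help other proteins to fold, to stay in solution or to cross a membrane. Their transcripts were compared between H9c2 cells given an empty vector and H9c2 cells given a plasmid for Cacnb4, the beta4 subunit of voltage-gated calcium channels. H9c2 is a line from embryonic heart of the BD1X rat strain, and the labels give no time after transfection and no vector name. Each group was 1 library, so nothing checks the differences against replicates, and no p-value was worked out from these values. The members were the genes of the Hsp70 (Hspa), Hsp90 alpha class (Hsp90a), Hsp110 (Hsph1), chaperonin (Hspd1 and Hspe1), small heat shock protein (Hspb) and J protein (Dnaja, Dnajb and Dnajc) families, chosen by symbol without Hspa5, Dnajb9 and Dnajc3. This gave 63 of the 16783 gene symbols in the table, from 77 transcripts. The choice used names only and no measured value.

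Hsp70 binds exposed stretches of unfolded proteins in a cycle driven by ATP. J proteins bring clients to Hsp70 and start its ATP hydrolysis, and Hsp110 and Bag proteins release the nucleotide again. Hsp90 acts later on kinases, receptors and other folded clients, Hspd1 and Hspe1 form the folding chamber of the mitochondrial matrix, and small heat shock proteins hold unfolding proteins without ATP. In heart and muscle this network tends the sarcomere, and many of its genes are driven by the transcription factor Hsf1, which binds inverted repeats of the letters GAA called heat shock elements.

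Of the 63 members, 52 were measured, meaning 1 FPKM or more in at least 1 library. FPKM is the number of fragments per kilobase of transcript, scaled to the mapped reads of the library, so levels below are per length. Levels were summed over the transcripts of a symbol. The log2 ratio is log2((FPKM Cacnb4 + 1)/(FPKM empty vector + 1)), so it is negative where the Cacnb4 library was lower and it understates differences of low genes. Not measured were Hspa12a, Hspb3, Hspb9, Dnajb3, Dnajb7, Dnajb8, Dnajb13, Dnajc5b, Dnajc5g, Dnajc6 and Dnajc12, all under 1 FPKM in both libraries. The label of cytosolic and mitochondrial chaperones did not cover every member, since Dnajb11, Dnajc10 and Hspa13 are known from the endoplasmic reticulum and Hspb11 is known as an intraflagellar transport protein. The defining member Hspa8, summed over a pair of loci, was the most abundant of the 63 in both libraries.

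The empty vector library held 13569897 mappable reads and the Cacnb4 library 14939784. Cacnb4 was at 4.37 FPKM with the empty vector and 6266 FPKM with Cacnb4, in the direction of the labels. Of the muscle markers, cardiac troponin Tnnt2 was at 214 and 309 FPKM, Actc1 at 225 and 192 FPKM, and myogenin, Myog, at 51.3 and 71.9 FPKM without and with Cacnb4. Desmin, Des, was at 7.55 and 6.02 FPKM and the embryonic myosin Myh3 at 1.86 and 4.57 FPKM. Ptprc of leukocytes, Pecam1 of endothelium and Rbfox3 of neurons were each under 0.1 FPKM in both libraries. The part that the muscle markers' differences play in the chaperone values was not tested.

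The promoter letters that the heat shock factor is known to bind are shown first, because they divide the members below. RefSeq promoter windows of assembly GRCr8, from 250 bases before to 50 after the gene's start, were found for 48 of the 63 members. A short element was the letters GAANNTTC or TTCNNGAA, and a long element was GAANNTTCNNGAA or TTCNNGAANNTTC, in which a short element of each kind overlaps. Both orders were searched, which covers both strands. The lines below show the long elements before the start of Hspa8, Hsph1 and Hspe1. The short elements before the start of Dnajb1, Hspb1 and Hspa9 are shown for comparison, and capitals mark the matched letters. Each line reads 5′ to 3′ on the gene's strand.
Hspa8, chr8:50080281-50080333, plus strand: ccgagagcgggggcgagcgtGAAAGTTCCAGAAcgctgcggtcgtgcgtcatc
Hspa8, chr8:50080439-50080491, plus strand: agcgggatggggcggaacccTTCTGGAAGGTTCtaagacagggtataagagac
Hsph1, chr12:10427312-10427364, plus strand: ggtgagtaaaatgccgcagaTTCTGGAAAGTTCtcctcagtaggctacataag
Hspe1, chr9:64084242-64084299, plus strand: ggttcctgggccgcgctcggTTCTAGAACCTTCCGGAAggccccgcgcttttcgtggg
Dnajb1, chr19:41431142-41431172, minus strand: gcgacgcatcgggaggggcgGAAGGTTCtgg
Hspb1, chr12:26432383-26432450, minus strand: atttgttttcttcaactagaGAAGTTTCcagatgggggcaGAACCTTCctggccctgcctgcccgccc
Hspa9, chr18:26828455-26828502, minus strand: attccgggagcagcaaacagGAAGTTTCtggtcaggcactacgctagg

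The long element of Hsph1 begins 36 bases before the start and the nearer one of Hspa8 begins 55 bases before it. In Hspe1 a pair of overlapping long elements runs from 65 to 48 bases before the start. Hspd1 lies head to head with Hspe1, so the windows overlap and the same letters were found in both. The long element of Dnaja1 lies after the annotated start and is not shown. Dnajb1 and Hspa9 each have another short element after the start, which is not shown either.

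Taken over all members, the chaperones stayed close to their empty vector levels. None of the 52 measured members, a count of 0, differed by 2-fold in either direction on the FPKM + 1 scale, where 1.94% of the 9539 genes measured were that much higher and 1.08% that much lower. A smaller step, chosen because these differences are small, was a ratio at least 25% higher or at least 20% lower on the same scale. At least 20% lower were 5 of the 52, against 10.1% of the genes measured, and 1 was at least 25% higher, against 9.78%. The share of members on the lower side was near that of all genes. The median log2 ratio was -0.08 over the measured members and -0.03 over all measured genes, with members ranging from -0.50 to 0.36. Below 0 were 33 members, where 55.4% of all measured genes were below 0. The authors' deposited table marked 0 of the 77 member transcripts as significant, where it marked 0.696% of all transcripts. An unadjusted p-value under 0.05 was given there to 0 of the 77, and the share of all transcripts under it was not worked out. The smallest p-value of a member in the authors' deposited table was 0.109, that of Hspa2. Those p-values compare the reads of these libraries and not the conditions.

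The abundant members leaned to lower values. Among the 19 members with a mean of 50 FPKM or more over both libraries, 17 had a log2 ratio below 0, where 63.9% of all genes at that level were below 0. The median log2 ratio was -0.14 for these 19 and -0.07 for the 1778 genes of that level. The exceptions were Hspa9 and Dnajb6. This minimum was chosen after the data were seen. Summed over all 63 members, chaperone transcripts came to 5820 FPKM with the empty vector and 5141 FPKM with Cacnb4, 0.883 times as much. Without Hspa8 the sums were 4334 and 4039 FPKM, 0.932 times as much, so a large part of the difference in the sum was that of Hspa8. Over all 16783 symbols the sum was lower too, at 691892 FPKM with the empty vector and 658582 FPKM with Cacnb4. A lower sum was thus not particular to chaperones. In bulk RNA, fewer cells of a type and less RNA per cell cannot be told apart.

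**Figure D1:**
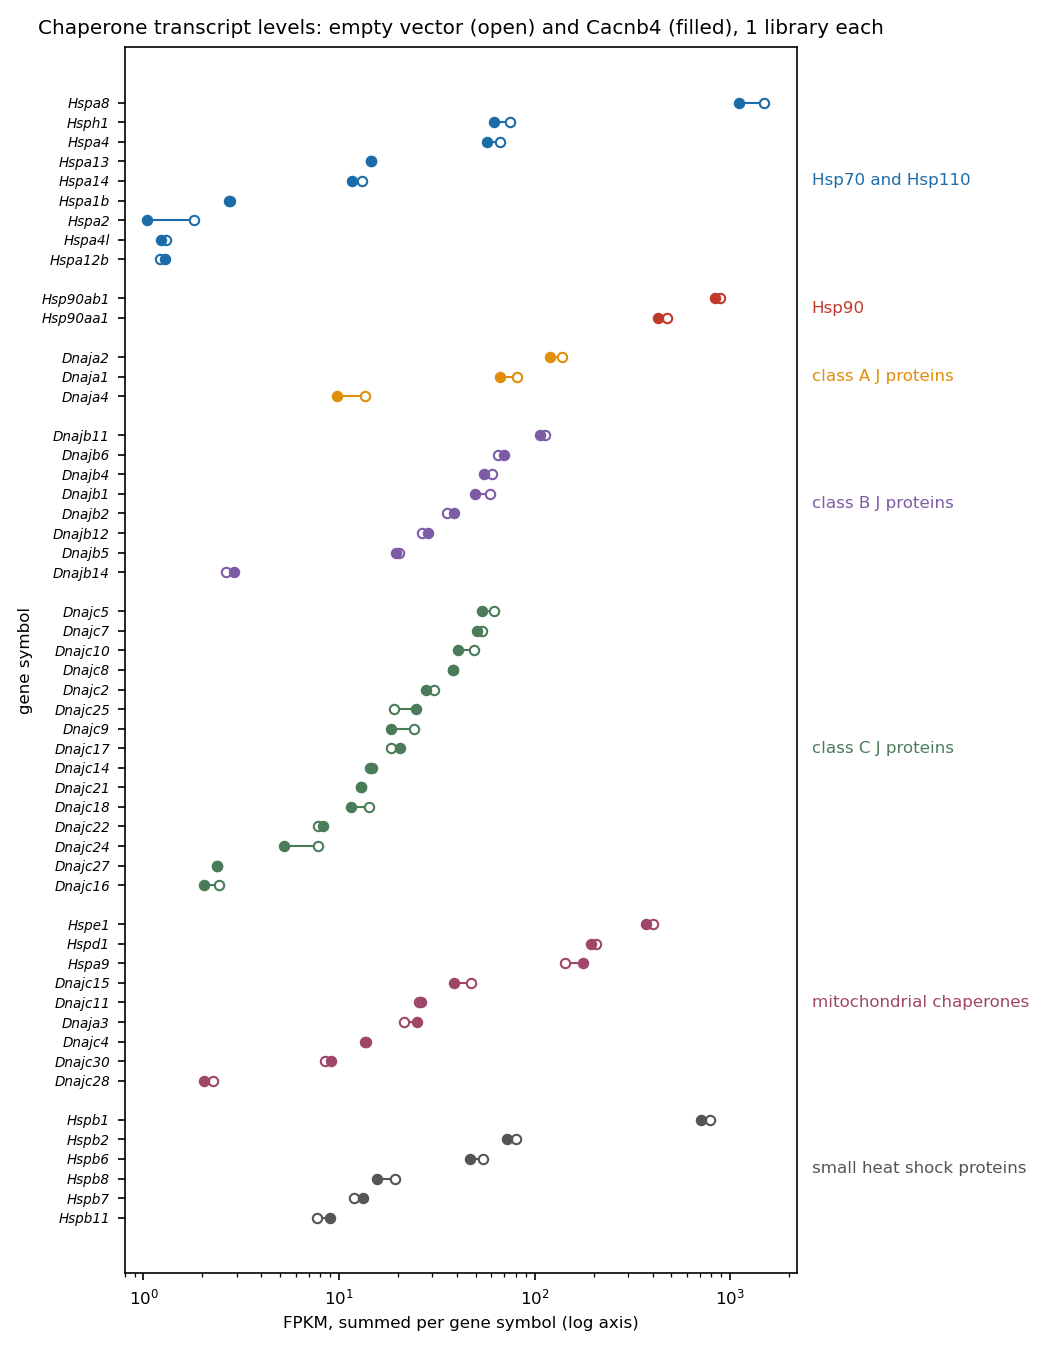
FPKM of each measured chaperone (log axis) in the empty vector library (open circles) and the Cacnb4 library (filled circles), grouped by role, 1 library per group and therefore no error bars. Levels span from about 1 FPKM to 1486 FPKM for Hspa8, and the pairs of circles lie close together for most genes.

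Hspa8, the constitutive Hsp70 of the cytosol known as Hsc70, was at 1486 FPKM with the empty vector and 1103 FPKM with Cacnb4, 0.742 times as much. Its log2 ratio was -0.43, the lowest among the 19 abundant members. By FPKM it had rank 71 of all symbols in the empty vector library and rank 98 in the Cacnb4 library, and its share of the summed chaperone FPKM was 25.5% and 21.4%. This sum, on which the ranks and shares rest, joins a pair of loci that the table lists under the same symbol in rn4. Neither locus alone reached the level of Hsp90ab1, at 883 FPKM with the empty vector and 836 FPKM with Cacnb4. The locus on chromosome 8, from 43784034 to 43787760, was at 664 FPKM with the empty vector and 492 FPKM with Cacnb4. The locus on chromosome 11, from 5434456 to 5436556, was at 821 and 610 FPKM. The Cacnb4 library was lower at both, by nearly the same factor, with ratios of 0.741 and 0.743. The authors' deposited table gave them p-values of 0.283 and 0.316. RefSeq of GRCr8 names 33 pseudogenes after Hspa8, so reads can be split among near-identical copies, and the pair of loci gives no independent repeat of the difference.

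The other Hsp70 and Hsp110 genes were much less abundant. Hsph1, an Hsp110 that exchanges the nucleotide of Hsp70, was at 74.7 FPKM with the empty vector and 61.9 FPKM with Cacnb4, with a log2 ratio of -0.27. Hspa4, another exchange factor of the Hsp110 kind, was at 66.8 and 56.8 FPKM. Both partners of Hspa8 were thus lower in the Cacnb4 library, by less than 20%. Hspa14, which works with Dnajc2 at the ribosome, was at 13.1 and 11.6 FPKM, and Hspa13 of the endoplasmic reticulum was at 14.6 FPKM in each. Hspa1b, an Hsp70 gene known for its strong induction by heat, stayed low at 2.74 and 2.77 FPKM. Hspa2, known from testis, was at 1.81 and 1.05 FPKM, so that its place among the 5 rests on a low value. Hspa4l was at 1.30 and 1.22 FPKM and Hspa12b, a distant Hsp70 relative, at 1.21 and 1.29 FPKM. Of the 9 measured genes of this group, 7 were below 0, where 55.4% of all measured genes were. The group's median log2 ratio was -0.16.

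Both cytosolic Hsp90 genes were slightly lower, where 63.9% of all genes at a mean of 50 FPKM or more had a log2 ratio below 0. Hsp90ab1, the constitutive form, was at 883 FPKM with the empty vector and 836 FPKM with Cacnb4, with a log2 ratio of -0.08. Hsp90aa1, the form known to be induced by stress, was at 474 and 426 FPKM, with a log2 ratio of -0.15. Hsp90ab1 was above Hsp90aa1 in both libraries, with rank 2 and rank 4 among the members. RefSeq of GRCr8 names 23 pseudogenes after Hsp90ab1 and 16 after Hsp90aa1, so these levels are uncertain for the same reason as that of Hspa8.

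All 3 class A J proteins grouped outside mitochondria were lower in the Cacnb4 library, where 55.4% of all measured genes were. The 3 are the cytosolic J proteins with a zinc-binding domain that partner Hspa8. Dnaja2 was at 138 FPKM with the empty vector and 119 FPKM with Cacnb4, Dnaja1 at 81.0 and 66.5 FPKM, and Dnaja4 at 13.5 and 9.74 FPKM. Their log2 ratios were -0.21, -0.28 and -0.44, and of these 3 only Dnaja4 was at least 20% lower. The median of -0.28 was the lowest of the role groups, over 3 genes. Dnaja3, a class A gene by its symbol, was placed with the mitochondrial chaperones. Its log2 ratio was 0.21, so it went the other way. Mir207 is listed with the same locus as Dnaja1, so reads there could be split.

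Class B J proteins went both ways. Dnajb11, which serves the Hsp70 of the endoplasmic reticulum, had the highest level at 113 FPKM with the empty vector and 107 FPKM with Cacnb4. Dnajb1, the classical heat-inducible Hsp40, was at 58.9 and 49.7 FPKM, with a log2 ratio of -0.24, the lowest of the group. Its cytosolic relatives Dnajb4 and Dnajb5 were at 60.3 and 55.2 FPKM and at 20.3 and 19.5 FPKM. These 4 were the ones below 0 among the 8 measured genes, where 55.4% of all measured genes were. Dnajb6, known to hold back polyglutamine aggregation, was at 64.6 and 69.9 FPKM, and Dnajb2 at 35.7 and 38.5 FPKM. Dnajb12 and Dnajb14, which sit in the membrane of the endoplasmic reticulum with the J domain in the cytosol, were at 26.5 and 28.3 FPKM and at 2.64 and 2.89 FPKM. The 4 genes above 0 had log2 ratios between 0.09 and 0.11, so the split in direction was one of small differences. The group's median of 0.02 turned to -0.05 with a minimum of 5 FPKM. The Dnajb6 locus in the table spans other symbols too.

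Class C J proteins, which share little beyond the J domain, held both ends of the range. Dnajc24, known in human and mouse as a factor of diphthamide synthesis, was at 7.81 FPKM with the empty vector and 5.22 FPKM with Cacnb4, the lowest log2 ratio of all measured members at -0.50. Dnajc25 was at 19.2 and 24.9 FPKM, the highest at 0.36 and the 1 member at least 25% higher. Dnajc9, a histone chaperone, was at 24.1 and 18.3 FPKM, with a log2 ratio of -0.38. Among the more abundant ones, Dnajc5, the cysteine string protein of secretory vesicles, was at 61.8 and 54.1 FPKM, Dnajc7, which links Hsp70 and Hsp90, at 53.8 and 50.9 FPKM, and Dnajc10, a disulfide reductase of the endoplasmic reticulum, at 48.9 and 40.3 FPKM. Dnajc17 was at 18.4 and 20.6 FPKM. The ribosome partner Dnajc2 was at 30.4 and 27.9 FPKM, Dnajc8 at 38.4 and 38.0 FPKM, and Dnajc14, Dnajc21, Dnajc22 and Dnajc27 had log2 ratios between 0.00027 and 0.08. Dnajc16, at 2.43 and 2.05 FPKM, had one of -0.17. Of the 15 measured genes, 9 were below 0, near the 55.4% of all measured genes, with a median of -0.08.

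**Figure D2:**
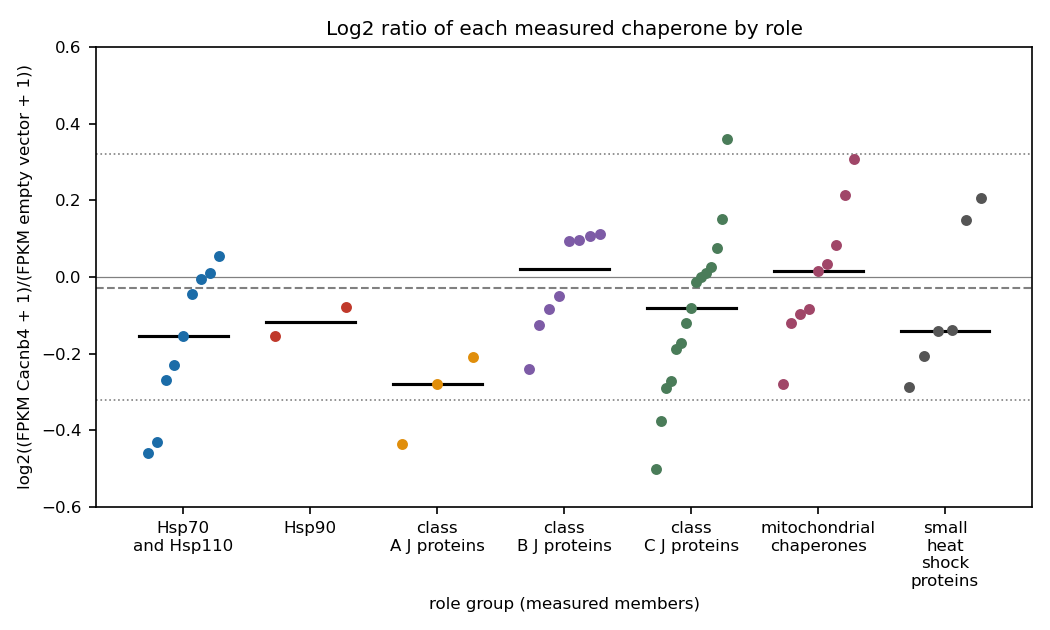
Log2 ratio of FPKM + 1, Cacnb4 over empty vector, for each measured chaperone by role group. Black bars are group medians, the dashed line is the median of all measured genes at -0.03 and dotted lines mark 25% higher and 20% lower. The 3 genes of the class A group and both Hsp90 genes lie below 0, as do 55.4% of all measured genes. The mitochondrial group, which holds Dnaja3, and the class B group lie on both sides.

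The mitochondrial chaperones differed among themselves in direction. Hspa9, or mortalin, the matrix Hsp70 that pulls proteins in through the import channel, was at 142 FPKM with the empty vector and 176 FPKM with Cacnb4, 1.24 times as much. Its log2 ratio of 0.31 was just short of 25% higher, and it was the highest among the 19 abundant members. Hspe1, the lid of the folding chamber, was at 403 and 370 FPKM, and Hspd1, the chamber itself, at 207 and 195 FPKM. These neighbours on rn4 chromosome 9 had ratios of 0.920 and 0.944, on the other side of 1 from Hspa9. The gene of Hspa9 lies on rn4 chromosome 18 from 27418922 to 27437086. RefSeq of GRCr8 names 20 pseudogenes after Hspd1 and 2 after Hspa9. Of the J proteins of mitochondria, Dnaja3, the matrix partner of Hspa9, was at 21.5 and 25.1 FPKM, and Dnajc15 of the inner membrane was at 47.3 and 38.8 FPKM, with log2 ratios of 0.21 and -0.28. Dnajc11 at 25.6 and 26.2 FPKM, Dnajc4 at 13.6 and 13.7 FPKM, Dnajc30 at 8.51 and 9.08 FPKM and Dnajc28 at 2.26 and 2.05 FPKM differed by less than 0.1 on the log2 scale. The group had 4 genes below 0 and 5 above, where 55.4% of all measured genes were below 0. The group's median of 0.01 turned to -0.083 with the highest transcript of each gene in place of the sum.

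Dnaja3 showed transcripts that differed in direction. The table lists 3 for it, of which 1 was at 6.59 FPKM with the empty vector and 11.7 FPKM with Cacnb4 and another at 13.6 and 11.8 FPKM. The smallest was at 1.27 and 1.57 FPKM. The higher value of the gene's sum therefore came mainly from the first, to which the authors' deposited table gave a p-value of 1, and with the most abundant transcript alone the log2 ratio of Dnaja3 was -0.19. Dnajc18, a class C J protein, had 1 transcript at 10.02 and 7.10 FPKM and 1 at 4.21 and 4.35 FPKM. Its sum was 14.2 FPKM with the empty vector and 11.5 FPKM with Cacnb4, lower as in the more abundant transcript.

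Of the small heat shock proteins, 4 of 6 measured genes were lower in the Cacnb4 library, where 55.4% of all measured genes were. Hspb1, which binds unfolding proteins and actin filaments, was the third most abundant member, at 784 FPKM with the empty vector and 712 FPKM with Cacnb4. Hspb2, of muscle, was at 79.8 and 72.3 FPKM, and Hspb6, known from muscle as Hsp20, at 54.3 and 46.9 FPKM. Hspb8, which works with Bag3 in clearing damaged sarcomere proteins, was at 19.3 and 15.7 FPKM, with a log2 ratio of -0.29, the lowest here. Hspb7, a gene of heart and muscle, was at 11.9 and 13.3 FPKM and Hspb11 at 7.67 and 8.995 FPKM, with log2 ratios of 0.15 and 0.21. The group's median was -0.14. The Hspb6 locus in the table spans many other symbols, so its value is uncertain. In all, 5 measured members share a listed locus with another symbol, namely Hspb6, Dnajb6, Dnaja1, Dnajc8 and Hspa12b.

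**Figure D3:**
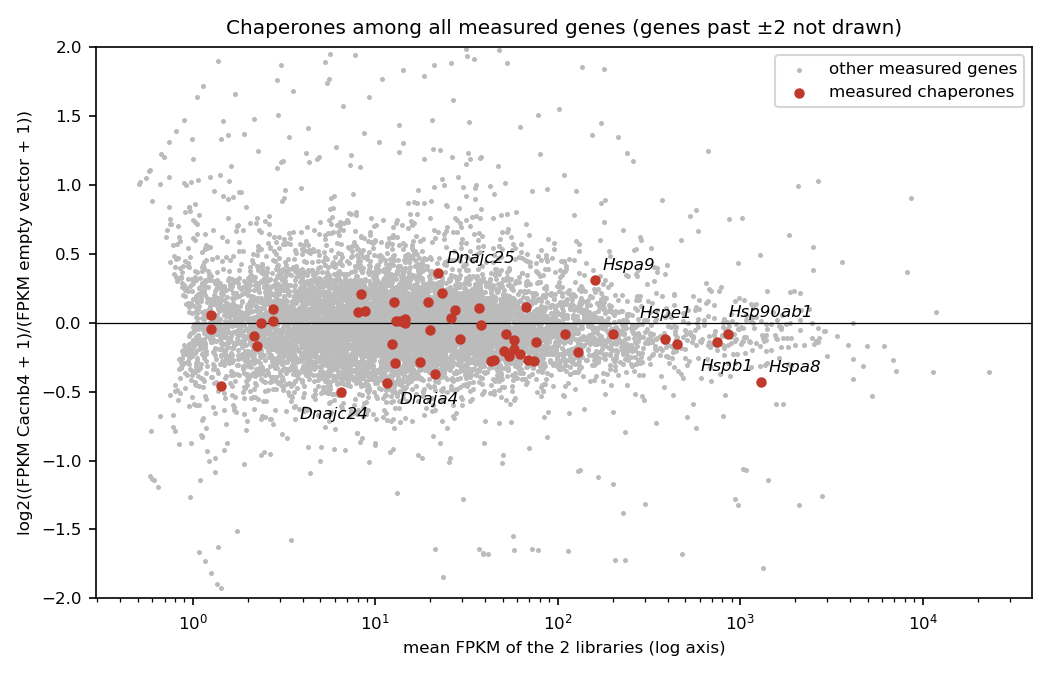
Log2 ratio of FPKM + 1 against the mean FPKM of both libraries (log axis) for the measured chaperones (red) and the other measured genes (grey), with 135 genes beyond a log2 ratio of 2 in size not drawn. Most red points on the right lie just below 0, with Hspa8 at -0.43 and Hspa9 at 0.31 on either side of them.

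Against the promoter letters shown above, the 5 members with the long element had a log2 ratio below 0. All 5 belong to the 19 members at a mean of 50 FPKM or more, of which 17 were below 0, as were 63.9% of all genes at that level, so the count alone sets them apart from neither. Among the 48 windows the short element was found in 16, or 33.3%, against 15.9% of all 33469 RefSeq windows, and the long element in 5, or 10.4%, against 0.798%. The 5 with the long element were Hspa8, Hsph1, Dnaja1, Hspd1 and Hspe1. Their median log2 ratio was -0.27, with a range from -0.43 to -0.08. For the 10 measured members with the short element only, the median was -0.17, with 7 below 0, and Hspa9 at 0.31 was the highest of them. For the 25 measured members with neither, the median was -0.01, with 13 below 0. The medians thus stand in the order of the length of the matched letters. The letters that Hspd1 and Hspe1 share were counted for both genes, and those of Dnaja1 lie after its start. The groups also differ in level, with median empty vector levels of 207, 36.8 and 18.4 FPKM in that order, and the part of this in the order of the medians was not tested. A match in these windows is no evidence of a bound factor. Elements with other letters or farther from the start were not searched for, so a gene with neither match can still have one. Dnajb4, Hsp90aa1 and Hspa1b are among the 15 members with no window used here.

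**Figure D4:**
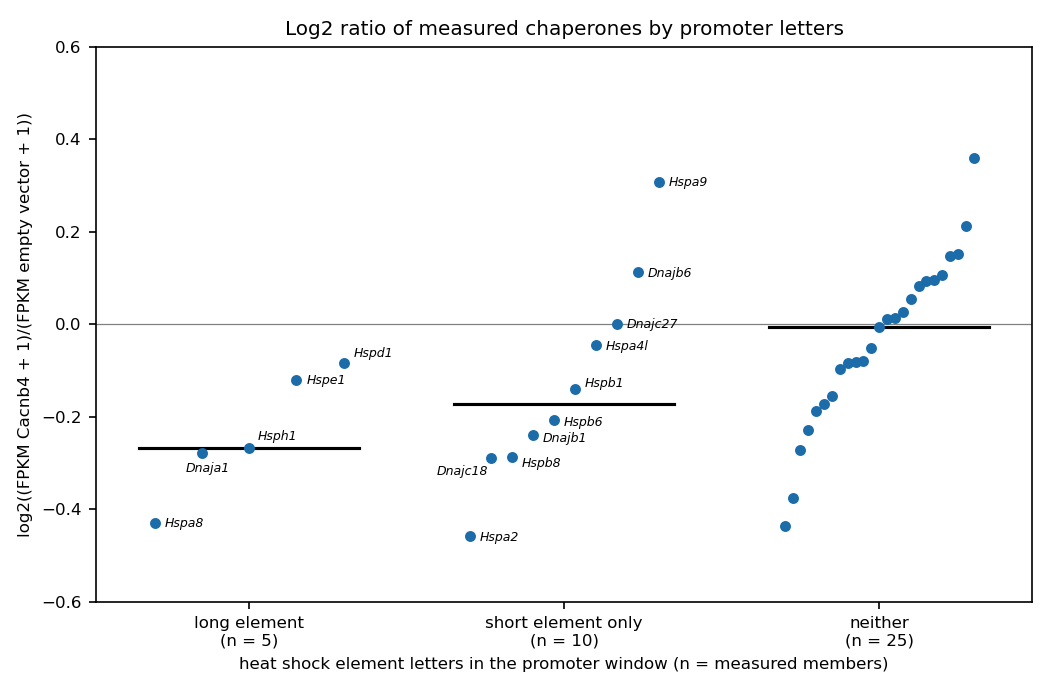
Log2 ratio of FPKM + 1 for the measured chaperones with a RefSeq window, by the heat shock element letters in it. Black bars are medians, at -0.27 for the 5 with the long element, -0.17 for the 10 with the short element only and -0.01 for the 25 with neither.

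The factors that act around these chaperones differed by small amounts. Their counts below 0 are to be read against 55.4% of all measured genes and 63.9% of those at a mean of 50 FPKM or more, whose medians were -0.03 and -0.07. Of the 4 genes of heat shock factors and their regulators, Hsf1 itself was at 21.3 FPKM with the empty vector and 23.4 FPKM with Cacnb4. Hsf2 was at 17.1 and 15.2 FPKM, Hsf4 at 10.5 and 8.50 FPKM, and Hsbp1, which binds heat shock factors, at 218 and 197 FPKM. The Hsf1 transcript was thus slightly higher and the other 3 slightly lower, with 0 past either step. Of all measured genes, 9.78% were past the higher step and 10.1% past the lower, so 0 of 4 does not set these genes apart. The activity of Hsf1 was not measured.

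Of 18 measured Hsp90 co-chaperones, 13 were below 0 on the log2 scale, with a median of -0.14, where 55.4% of all measured genes were below 0. Stip1, which hands clients from Hsp70 to Hsp90, was at 223 FPKM with the empty vector and 194 FPKM with Cacnb4. Tomm34 was at 60.0 and 49.3 FPKM and Aarsd1 at 12.1 and 10.3 FPKM. Fkbp5, an immunophilin known as a glucocorticoid target, was the 1 gene at least 25% higher, at 5.01 and 6.95 FPKM, where 9.78% of all measured genes were. Stip1 is named outside the rule for named genes, after its value was seen, as the link between both machines.

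Of 11 measured co-chaperones of Hsp70, 7 were below 0, a share near that of abundant genes, with a median of -0.07. St13, which steadies the Hsp70 client complex, was at 170.0 FPKM with the empty vector and 137 FPKM with Cacnb4, and Stub1, the ubiquitin ligase that sends Hsp70 clients to the proteasome, at 120 and 98.2 FPKM. Bag4 was the 1 gene at least 20% lower, at 6.68 and 4.43 FPKM, where 10.1% of all measured genes were. Bag3, the partner of Hspb8, was at 91.5 and 87.3 FPKM and is named after its value was seen.

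The chaperonin of the cytosol folds actin and tubulin, with prefoldin as its supplier. Of 12 measured genes of the TRiC ring and of prefoldin, 9 were below 0, where 63.9% of all genes at a mean of 50 FPKM or more were. The median was -0.10, beside -0.07 for all genes at that level. Of the 12, 0 were past either step. Of the 1778 genes at that level, 147 were past the higher step and 154 past the lower. The count of 0 alone thus does not set the 12 apart. The TRiC subunits Cct2, Cct5 and Cct4 had the largest differences, at 318 and 261 FPKM, at 258 and 223 FPKM and at 278 and 252 FPKM. All 8 TRiC subunits were among the 9.

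Of 14 measured genes of mitochondrial import and quality control, 10 were below 0, where 55.4% of all measured genes were, with a median of -0.14. Timm17a, a part of the import channel to which Hspa9 is tied, was at 66.2 FPKM with the empty vector and 46.7 FPKM with Cacnb4. The inner membrane protease subunit Afg3l2 was at 17.5 and 13.6 FPKM. These were the 2 at least 20% lower, where 10.1% of all measured genes were. Tomm22 of the outer membrane was at 144 and 123 FPKM. On the other side, in the direction of Hspa9, were Yme1l1, an inner membrane protease, at 30.3 and 35.2 FPKM, and Grpel1, Grpel2 and Htra2 with log2 ratios from 0.01 to 0.08. These 4 are named after their values were seen. Lonp1, a protease of the matrix, is listed at 0 in both libraries, which for a gene used by every cell can be a failed estimate.

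The chaperones of the endoplasmic reticulum that the choice of members left out had log2 ratios from -0.19 to 0.02. Hspa5, its Hsp70, was at 342 FPKM with the empty vector and 347 FPKM with Cacnb4, and Hsp90b1, its Hsp90, at 365 and 320 FPKM. Dnajc3 was at 44.7 and 43.0 FPKM and Dnajb9 at 12.3 and 11.3 FPKM. Below 0 were 3 of the 4, where 55.4% of all measured genes were, and 0 were past either step. Of all measured genes, 9.78% were past the higher step and 10.1% past the lower. A count of 0 among 4 genes thus does not set them apart. Hspa5 at 1.02 times its empty vector level, Hspa8 at 0.742 times and Hspa9 at 1.24 times were the main Hsp70 genes of their compartments, and each gave a different direction or size.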

How the data were processed

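RNA of 2 H9c2 libraries, 1 per group by the sample titles, was sequenced. The deposited read counts per library are raw, mappable and unmapped reads, and per the file's footnote they were trimmed of adaptor, with those then shorter than 10 bases dropped. Reads were aligned with TopHat 1.4.1 to rn4, per the submitters' processing notes, and no source used here gives the program behind the transcript levels. The authors' values per transcript have no named unit and were read as FPKM from the table's layout. The authors' p-value and q-value per transcript come from the same deposited table. Depth per transcript is not known, so no counting interval is given.

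FPKM was summed per symbol over 19217 named transcripts, leaving out 13533 with no name and 17 with a date as name. The pseudocount was 1 FPKM and the minimum 1 FPKM in at least 1 library. Members were put into 7 role groups, mitochondrial first. All 63 members matched RefSeq of GRCr8. Members, lists, folds and the rule for named genes (in each role group the most abundant members, the highest and lowest log2 ratios at 5 FPKM or more, members whose transcripts differ in direction, and the largest differences of each other list) were chosen with earlier results of these data known. Members outside that rule are named to account for all. The 2-fold rule was tested on simulated data with changes larger than 2-fold. The smaller step of 25% higher or 20% lower was not tested on them. Alternatives were other pseudocounts and minimums, the highest transcript, a rescaling, and 1 locus for Hspa8. Python 3.11.15, numpy 2.4.6, pandas 2.3.3 and matplotlib 3.10.9 were used.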

Additional observations from a re-analysis of the deposited data

How the results depend on the processing

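The median log2 ratio of the measured members stayed below 0, and the count at 2-fold stayed 0, under every alternative run. The count at least 25% higher, 1 in the report, was 0 with a pseudocount of 5 FPKM, 2 with no minimum and 2 after rescaling. The count at least 20% lower, 5 in the report, was 3 with a pseudocount of 5 FPKM, 4 with a minimum of 5 FPKM, 6 with the highest transcript and 7 with no minimum. Among the 19 members at a mean of 50 FPKM or more, chosen after the data were seen, 17 were below 0, 0 were at least 25% higher and 1 was at least 20% lower. Of all 1778 genes of that level, 63.9% were below 0, 147 genes were at least 25% higher and 154 at least 20% lower. The fall in the counts of members follows in part from the fewer genes. The class B median turned from 0.02 to -0.0046 with no minimum and to -0.051 with a minimum of 5 FPKM. The mitochondrial median turned from 0.01 to -0.083 with the highest transcript in place of the sum. The cause of these changes was not tested. Rescaling shifted all log2 ratios of abundant genes by 0.04. The log2 ratio of Hspa8 was little changed with the chromosome 8 locus alone. Of the 30 other named members, 28 moved by less than 0.1 with a pseudocount of 5 FPKM and 28 with the highest transcript, and all 30 did so under the other settings run on them. No paired analysis was possible because each group held 1 library. With 1 library per group, differences of the size seen here cannot be told from the spread between cultures.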

Other observations

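The authors' deposited table gave a p-value of 1 to 11 of the 77 member transcripts. The same share over all transcripts was not worked out, so the count cannot be called particular to chaperones. Of these, 7 are listed at 0 in both libraries, and the other 4 were above 5 FPKM in at least 1 library. They were 1 transcript each of Dnaja2 at 116 and 97.3 FPKM, Dnaja3 at 6.59 and 11.7 FPKM, Dnajc5 at 36.7 and 30.2 FPKM and Dnajc18 at 10.02 and 7.10 FPKM, without and with Cacnb4. Each of these 4 genes has another transcript with a p-value below 1 in the authors' deposited table. Whether a p-value of 1 there stands for a test that was not run cannot be read from the table.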
